A study of Mus musculus with 36 samples.

Results

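Granzymes and perforin are the proteins that cytotoxic lymphocytes store in granules and release onto a target cell. The 7 genes described here, Gzma, Gzmb, Gzmc, Gzmd, Gzme, Gzmf and Prf1, are 7 of the 18781 rows of a gene expression table. They were selected by name after their tumor values were known, because most of them were lower in the tumors of treated mice; that difference is therefore given below as a description, with no test. The samples are bulk RNA libraries from wild-type C57BL/6 mice, matched for age and sex, that bore tumors of MC38, a mouse colon carcinoma cell line. Treated mice received anti-PD1 and anti-CTLA4 antibodies together at high dosage, a combined immune checkpoint blockade (ICB). Control mice received IgG. Tumor, lung, heart, skeletal muscle, liver and kidney were flash-frozen, and each gave 3 ICB and 3 IgG libraries, 36 in all. Doses, times, ages and sexes are not stated in the sources used here, and nothing in the labels says that libraries of a group are separate animals, so every p-value measures the spread between these libraries only. All mice carried a tumor, so no organ here comes from a tumor-free mouse. The libraries held 19005189 to 25512980 reads assigned to genes, and values are FPKM, reads scaled to the length of the gene and the size of the library, so levels of different genes can be set side by side.

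Perforin, the product of Prf1, forms pores through which granzymes reach the target cell. Granzymes are serine proteases: granzyme B cuts after aspartate and starts the caspase cascade, and granzyme A is a trypsin-like protease that acts without caspases. Granzymes C, D, E and F belong to a family of closely related proteases that rodents have beside granzyme B. In the mouse they are known from long-activated T cells and from activated NK cells. Granzyme A is abundant in resting NK cells, which the lung vasculature holds in number.

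On mm10, 5 of the genes lie on the minus strand of chromosome 14 within 144635 bases, with Gzme at chr14:56117626-56120625, Gzmd at chr14:56129556-56132608, Gzmf at chr14:56205263-56211417, Gzmc at chr14:56231441-56234656 and Gzmb at chr14:56258838-56262260. Gzma lies apart at chr13:113093825-113100981, minus strand, and Prf1 at chr10:61297833-61304680, plus strand. The transcripts of Gzmd and Gzme are 90.0% identical, whereas Gzmc shares 70.1% to 72.5% with Gzmd, Gzme and Gzmf. Of all stretches of 50 bases in the transcript, 21.9% for Gzmd, 20.6% for Gzme, 19.4% for Gzmf and 4.14% for Gzmc also occur in another gene's transcripts, so reads of these genes may have been split among them. Gzma, Gzmb and Prf1 share none. Gzmf also overlaps the predicted gene Gm4022 on the other strand, and the sources used here do not say whether strand was used in counting. Levels of single genes among Gzmc to Gzmf are therefore uncertain. Their sum is affected too: Gzmf shares 105 such stretches with Gm4022. With the related gene Gzmg, Gzmd shares 65, Gzme 42, Gzmf 42 and Gzmc 21.

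The promoters of this gene group are shown because the cluster genes varied together in the data below. Each line gives RefSeq bases from 250 before to 50 after the gene start (GRCm38.p6, minus strand, written 5′ to 3′), for Gzmb at chr14:56262285-56262584, Gzmc at chr14:56234608-56234907, Gzmd at chr14:56132544-56132843 and Gzme at chr14:56120576-56120875. Capitals mark TGTGGT, a core motif bound by RUNX factors, or its reverse complement ACCACA.
Gzmb: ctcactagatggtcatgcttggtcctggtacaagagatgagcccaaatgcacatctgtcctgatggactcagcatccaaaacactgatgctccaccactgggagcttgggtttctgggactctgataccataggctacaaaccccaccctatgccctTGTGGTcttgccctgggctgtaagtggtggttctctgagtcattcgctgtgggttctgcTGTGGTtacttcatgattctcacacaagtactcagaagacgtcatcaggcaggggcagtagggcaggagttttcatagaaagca
Gzmc: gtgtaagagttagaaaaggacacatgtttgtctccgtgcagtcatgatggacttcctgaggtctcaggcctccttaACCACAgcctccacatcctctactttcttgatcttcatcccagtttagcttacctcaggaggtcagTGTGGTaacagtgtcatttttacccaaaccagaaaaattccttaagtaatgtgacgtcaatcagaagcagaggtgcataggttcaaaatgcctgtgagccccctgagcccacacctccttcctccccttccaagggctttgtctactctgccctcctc
Gzmd: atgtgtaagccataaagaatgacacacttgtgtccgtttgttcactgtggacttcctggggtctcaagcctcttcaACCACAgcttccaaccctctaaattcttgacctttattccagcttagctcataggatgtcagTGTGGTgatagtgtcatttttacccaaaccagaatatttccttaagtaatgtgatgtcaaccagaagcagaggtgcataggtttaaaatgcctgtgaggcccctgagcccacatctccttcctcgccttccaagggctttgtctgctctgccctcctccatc
Gzme: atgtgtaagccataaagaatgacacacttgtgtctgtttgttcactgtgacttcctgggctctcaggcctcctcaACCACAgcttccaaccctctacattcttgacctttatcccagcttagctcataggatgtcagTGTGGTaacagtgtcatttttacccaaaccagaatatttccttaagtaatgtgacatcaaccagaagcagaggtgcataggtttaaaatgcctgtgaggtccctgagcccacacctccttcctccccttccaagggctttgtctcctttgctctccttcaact
The Gzmd and Gzme promoters were 93.7% identical over the window and those of Gzmc and Gzmd 84.3%, while Gzmb shared 49% to 52.7% with the Gzmc to Gzmf promoters. TGTGGT, searched on both strands, occurred in all 7 member promoters, against 16.8% of the 32851 promoters in the RefSeq table. The Gzmc to Gzmf promoters were 79.7% to 93.7% identical to each other, so the 7 are not separate observations. An AP-1 motif, TGANTCA, and a STAT motif, TTCNNNGAA, were found only in the Gzmb window among the 7; they occur in 7.81% and 8.30% of all promoters. The letters TATAAA were in none of the 7, against 8.32% of all promoters. These matches describe the letters of the windows and say nothing of binding.

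All 7 genes had their 2 highest tissue means, in each treatment, in tumor and lung, and the make-up differed between these tissues. In tumors the highest levels were those of Gzmc, Gzmd and Gzmf, whereas in lungs Gzma was highest. The plot of all libraries shows these levels beside those of the other organs.

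**Figure D1:**
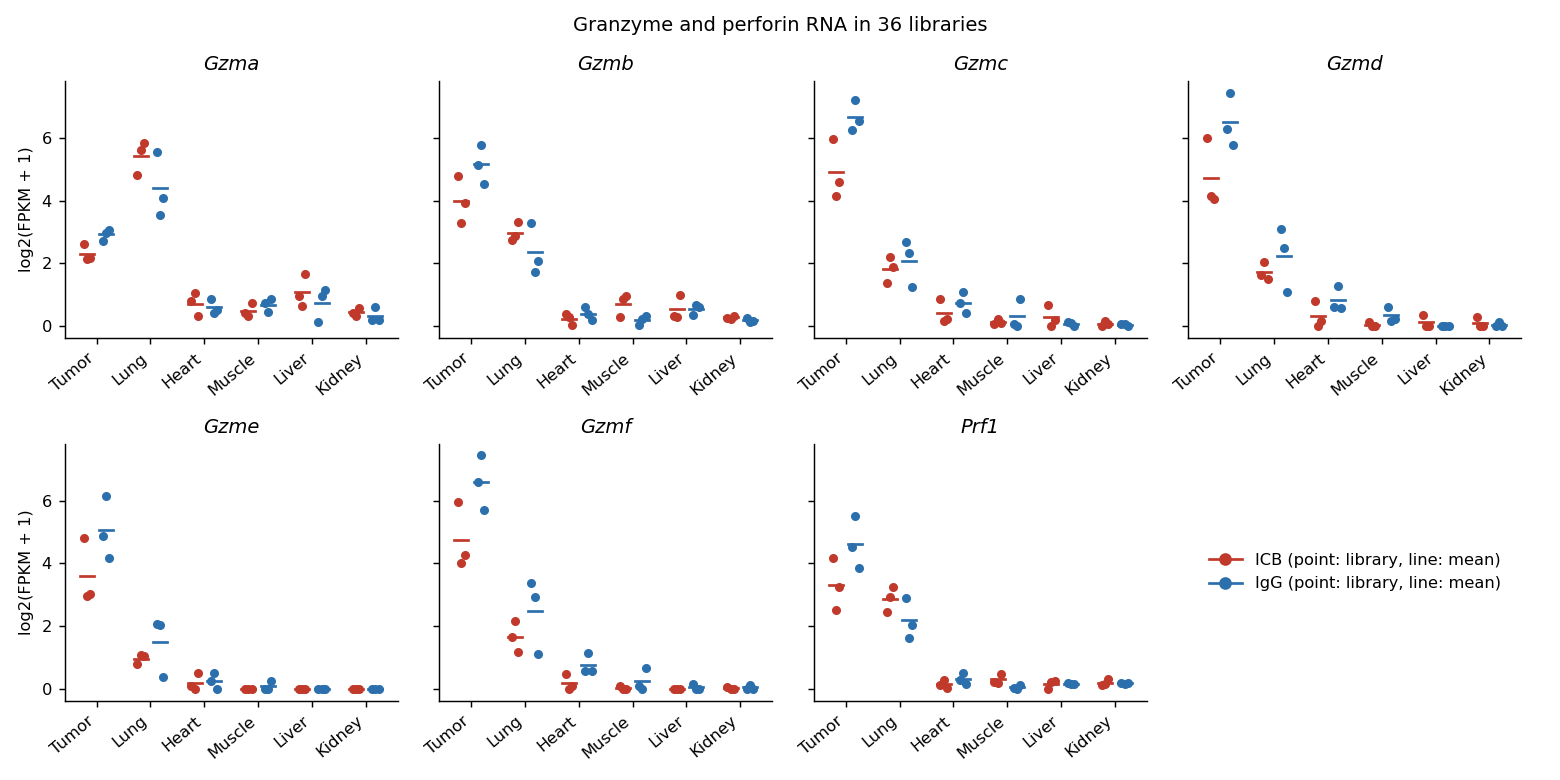
Log2(FPKM + 1) of the 7 genes in 6 tissues, ICB left of IgG, with 1 point per library and a line at the mean of 3 libraries. The means of tumor and lung stand above those of heart, muscle, liver and kidney for each of the 7 genes, while single lung and heart libraries overlap for Gzmd, Gzme and Gzmf, and Gzma is the gene that is higher in lung than in tumor.

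Gzmc had 61.1, 16.8 and 23.3 FPKM in the 3 ICB tumors, against 74.3, 148 and 91.7 FPKM in the 3 IgG tumors. No ICB tumor reached the lowest IgG tumor. Gzma, much lower in level, had 5.10, 3.45 and 3.52 FPKM in ICB tumors, against 5.59, 6.90 and 7.38 FPKM in IgG tumors, again without overlap. These were 2 of the 7 genes in which every ICB tumor lay below every IgG tumor, a pattern seen in 7.49% of the 11398 genes that passed the low-value filter in the tumor. Since the genes were selected on this contrast, nothing is read from that count.

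Gzmb had 26.3, 8.86 and 14.1 FPKM in ICB tumors, against 34.3, 54.2 and 22.1 FPKM in IgG tumors. Its pore-forming partner Prf1 had 16.9, 4.76 and 8.54 FPKM in ICB tumors, against 21.7, 44.5 and 13.5 FPKM in IgG tumors. In both genes ICB tumor 1 lay above IgG tumor 3, so the groups overlapped.

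Gzmd had 62.4, 16.8 and 15.5 FPKM in ICB tumors, against 77.0, 171 and 53.1 FPKM in IgG tumors. Gzmf, with 60.7, 15.3 and 18.1 FPKM in ICB tumors, against 95.3, 172 and 51.4 FPKM in IgG tumors, ran almost parallel to it. Gzme was the lowest of this family, at 27.0, 6.79 and 7.10 FPKM in ICB tumors, against 28.4, 69.2 and 16.9 FPKM in IgG tumors. All 3 genes overlapped between the groups through the same libraries: ICB tumor 1 was higher than IgG tumor 3. The ratio of the highest to the lowest tumor library was 11.1 for Gzmd, 10.2 for Gzme and 11.3 for Gzmf, but 2.14 for Gzma.

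On the log2(FPKM + 1) scale, which understates differences of low genes, ICB minus IgG in the tumor was -1.84 ± 0.60 for Gzmf, -1.76 ± 0.61 for Gzmd, -1.76 ± 0.47 for Gzmc and -1.46 ± 0.64 for Gzme (limma SE, 3 libraries per group). It was -1.31 ± 0.52 for Prf1, -1.16 ± 0.43 for Gzmb and -0.61 ± 0.16 for Gzma. The median of the 7 was -1.46, beside -0.01 over all genes in the same fit. These are descriptions, and no test of them is given. Across all 11398 genes limma called 0 between ICB and IgG tumors (0% of those tested), 783 had an unadjusted p under 0.05, and limma-voom on reads recovered from the FPKM called 0. Gzmg, a further gene of the same family that is not among the 7, had 72.2, 15.3 and 13.8 FPKM in ICB tumors, against 99.0, 220 and 61.0 FPKM in IgG tumors. Its order of libraries was that of Gzmd.

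**Figure D2:**
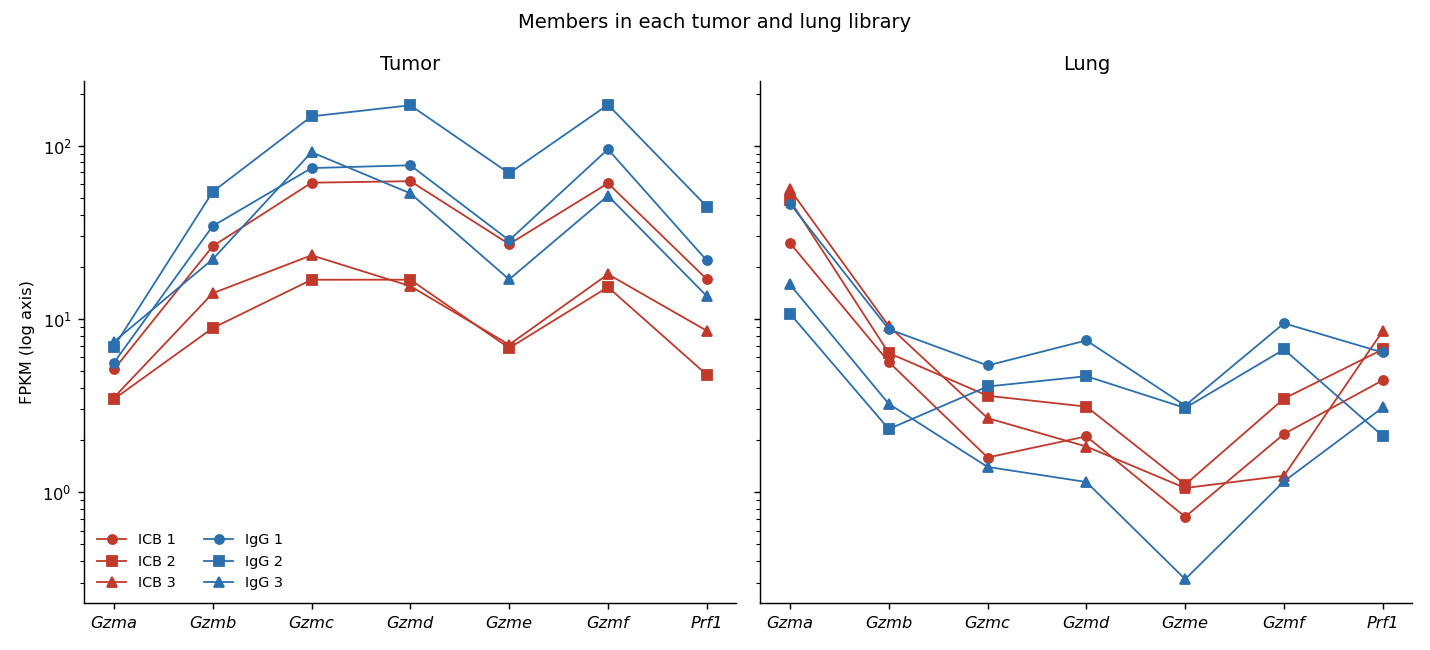
FPKM of the 7 genes on a log axis in each tumor library (left) and lung library (right), with 1 line per library. IgG tumor 2 is highest for 6 of the 7 genes, ICB tumors 2 and 3 are lowest for all 7, and Gzma is the highest of the 7 in each lung library.

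The genes of the cluster varied together among tumors. With the mean of each treatment group subtracted, the Pearson correlation over the 6 tumor libraries was 0.993 for Gzmd with Gzme, 0.989 for Gzme with Gzmf and 0.982 for Gzmd with Gzmf. For Gzmc with these 3 genes it was 0.876 to 0.902. Gzmb and Prf1, which lie on different chromosomes and share no stretch of 50 bases, had a correlation of 0.993, and together had 0.862 to 0.971 with Gzmc to Gzmf. Gzma was the least tied to the rest, at 0.480 with Prf1, 0.494 with Gzmb and 0.541 to 0.858 with the cluster genes. These values rest on 6 libraries that share their depth and tissue make-up and are given with no p. Among 10587 genes compared in the same way, genes of other families reached values as high. Examples are Ccdc120 with Gzmb (0.997) and Cntln with Gzmc (0.995). Shared reads may raise the values of pairs among Gzmc to Gzmf that share stretches of 50 bases. Gzmf shares such stretches with Gzmd, but not with Gzme or Gzmc.

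Gzmc to Gzmf led in tumors of both treatments. Gzmc to Gzmf summed to 211, 55.7 and 64.0 FPKM in ICB tumors, against 275, 560 and 213 FPKM in IgG tumors. They formed 87.1%, 81.9% and 78.4% of the summed FPKM of the 6 granzymes in ICB tumors, against 87.3%, 90.2% and 87.8% in IgG tumors. Gzmb formed 10.8% to 17.2% in ICB tumors and 8.72% to 10.9% in IgG tumors. Gzma formed 2.104% to 5.06% in ICB tumors and 1.11% to 3.04% in IgG tumors. The ratio of Gzmb to Prf1 was 1.55, 1.86 and 1.65 in ICB tumors, against 1.58, 1.22 and 1.63 in IgG tumors. The Gzma and Gzmb shares and this ratio overlapped between the treatments. The sum and the share of Gzmc to Gzmf did not, by a small margin: ICB tumor 1 (211 FPKM, 87.1%) stood just under the lowest IgG values (213 FPKM, 87.3%).

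**Figure D3:**
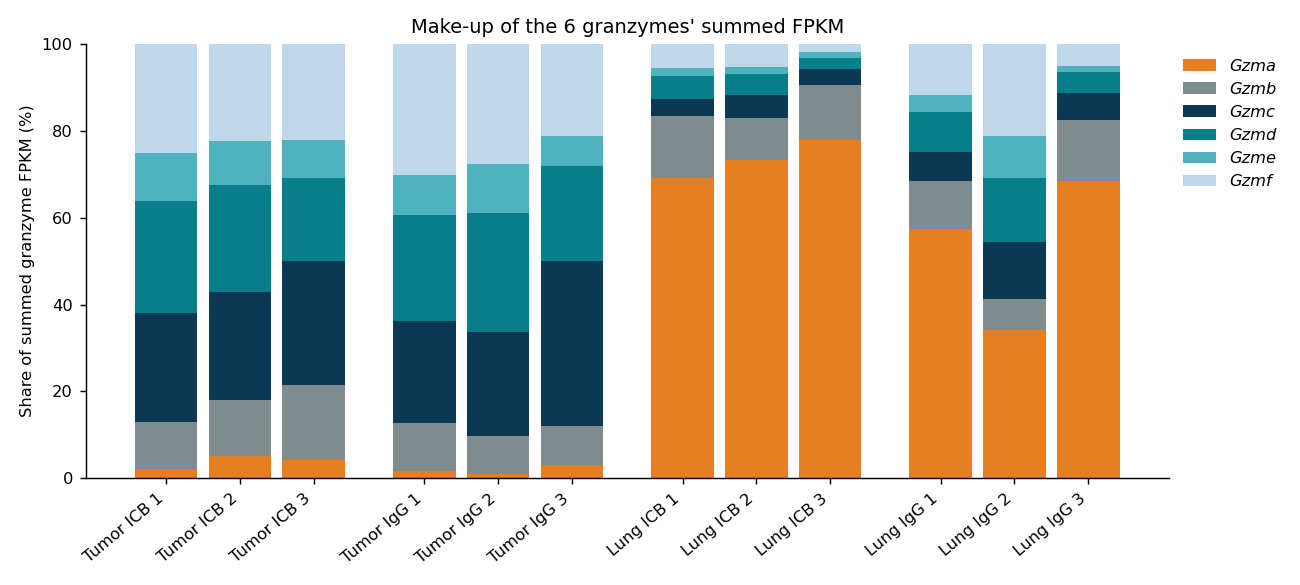
Share of each granzyme in the summed FPKM of Gzma, Gzmb, Gzmc, Gzmd, Gzme and Gzmf, in %, for 6 tumor and 6 lung libraries, ICB left of IgG. Gzmc to Gzmf make up 78.4% to 90.2% in tumors, and Gzma 34.1% to 77.9% in lungs.

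Fat cell markers moved with the tumor differences. The summed FPKM of 5 fat cell genes (Adipoq, Plin1, Cidec, Cfd and Lep) was 1.17, 50.1 and 47.6 in ICB tumors, against 1.35, 0.205 and 0.743 in IgG tumors. The 2 ICB tumors with high fat cell sums, 2 and 3, were the 2 with the lowest sums of Gzmc to Gzmf. In IgG tumors 1 or 2 of the 5 fat cell genes were at 0. Without these 2 ICB tumors, a choice made after seeing the data, ICB tumor 1 was left against 3 IgG tumors and was assumed to vary like them. ICB minus IgG was then -0.70 ± 0.41 for Gzmc, -0.63 ± 0.66 for Gzmf, -0.50 ± 0.66 for Gzmd, -0.46 ± 0.64 for Prf1, -0.38 ± 0.50 for Gzmb, -0.31 ± 0.21 for Gzma and -0.25 ± 0.76 for Gzme (limma SE). Every difference was thus 0.171 to 0.513 times its size. ICB tumors 2 and 3 were the lowest libraries of every gene, so leaving them out had to raise each ICB mean. Nothing is therefore read from the smaller differences. Their sign is not read either, since the genes were selected on this contrast. Skeletal muscle genes (6 in the list) summed to 15.6, 349 and 3.94 FPKM in ICB tumors, against 9.99, 4.66 and 5.50 FPKM in IgG tumors. They did not follow the granzymes in the same way, since ICB tumor 3 had the lowest muscle sum of all tumors. The part of either tissue in the granzyme differences was not tested. The keratins and Epcam that mark many colon carcinomas were near 0: Epcam, Krt8 and Krt18 together summed to 0.137 to 1.01 FPKM in ICB tumors and 0.477 to 0.867 FPKM in IgG tumors, so the carcinoma label could not be checked on them. In bulk tissue fewer cytotoxic cells and less RNA per cell cannot be told apart.

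T cell and NK cell genes were low in the tumor beside the granzymes. The 15 measured T cell genes summed to 10.2 to 17.8 FPKM in ICB tumors, against 11.6 to 13.8 FPKM in IgG tumors. Of these, 6 passed the low-value filter, with a median ICB minus IgG of 0.09. NK cell genes (11 measured) summed to 11.2 to 14.1 FPKM in ICB tumors, against 12.3 to 21.2 FPKM in IgG tumors. Most of this sum was Klra4, with means of 8.31 FPKM in ICB and 9.16 FPKM in IgG tumors. The mean sums were 13.1 FPKM in ICB and 17.6 FPKM in IgG tumors, so most of the difference between them lay in the other NK cell genes. Of the 11, 3 passed the filter, all 3 had lower means in ICB tumors on the log2 scale, and their median was -0.17. No gene of either list was called.

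In lists of other genes around the granule pathway, limma called no gene between ICB and IgG tumors. For granule storage and release, 3 of 11 genes had positive and 8 negative differences, with a median of -0.15 on the log2(FPKM + 1) scale. Ctsw, a cathepsin of cytotoxic lymphocytes, had -0.50 ± 0.20 (1.72 FPKM in ICB, 2.87 FPKM in IgG) and was singled out after its values were seen. Ctsc, the cathepsin that activates granzyme precursors, had 0.30 ± 0.29 (22.7 FPKM in ICB, 19.0 FPKM in IgG). Granzyme inhibitors of the serpin family had 1 positive and 2 negative differences among 3 genes tested, with a median of -0.17. Serpinb9, the inhibitor of granzyme B, stood at 6.41 FPKM in ICB and 6.43 FPKM in IgG tumors. Regulators of the cytotoxic program had 2 positive and 5 negative differences of 7 tested, with a median of -0.09. Eomes, a T-box factor of cytotoxic lymphocytes, had 2.53 FPKM in ICB and 2.96 FPKM in IgG tumors (-0.16 ± 0.13, SE). Cytokines and receptors that induce granzymes had 3 positive and 4 negative differences of 7 tested. Their largest was that of Il2rb, the shared IL-2 and IL-15 receptor chain, at -0.76 ± 0.19 (4.95 FPKM in ICB, 9.15 FPKM in IgG). Death ligands, another killing route, had 2 positive differences of 2 tested, with Tnfsf10 (TRAIL) at 0.46 ± 0.20. The adjusted p of every gene named in these lists was 0.692 or above (limma, Benjamini-Hochberg over 11398 genes).

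Levels across tissues were compared in the 18 IgG libraries. The tumor was higher than the lung for 6 of the 7 genes and lower for Gzma. The 3 IgG tumors also entered the contrast by which the genes were selected, so tumor minus lung is a description with no test. It was 4.57 ± 0.32 for Gzmc, 4.26 ± 0.42 for Gzmd, 4.10 ± 0.46 for Gzmf and 3.57 ± 0.42 for Gzme on the log2(FPKM + 1) scale (limma SE). It was 2.79 ± 0.32 for Gzmb and 2.44 ± 0.32 for Prf1. For Gzma it was -1.47 ± 0.37, with 6.62 ± 0.927 FPKM in IgG tumors and 24.3 ± 19.3 FPKM in IgG lungs (SD, n = 3 each). The same fit called 33.4% of 15534 genes higher and 30.4% lower in the tumor.

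The lung was higher than the mean of heart, muscle, liver and kidney for all 7 genes in IgG libraries, where the same fit called 31.4% of genes higher in lung. The difference was 3.80 ± 0.30 for Gzma (limma adjusted p = 8.16e-09), 2.20 ± 0.37 for Gzmf (adjusted p = 5.46e-05), 2.03 ± 0.26 for Gzmb (adjusted p = 2.61e-06) and 2.01 ± 0.25 for Prf1 (adjusted p = 2.73e-06). Gzmd had 1.93 ± 0.33 (adjusted p = 7.60e-05), Gzmc 1.79 ± 0.25 (adjusted p = 1.01e-05) and Gzme 1.41 ± 0.33 (adjusted p = 0.00125). Each of the 7 met the filter of this fit in the IgG tumors, all but Gzme also met it in the IgG lungs, and 0 passed it within any of the 4 other organs. Among the tissues compared, the filter was thus met in the lung, the higher one, or not at all. These adjusted p therefore set the lung against values near the floor. Rescaling every library to a common FPKM sum moved the median of all genes by 0.76 in this comparison and by 0.23 in tumor against lung, and all 7 calls kept their sign in both.

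In IgG libraries the order of tissue means began with tumor, then lung, for Gzmb, Gzmc, Gzmd, Gzme, Gzmf and Prf1, and the ranges of tumor and lung did not overlap. For Gzma it began with lung, then tumor, also without overlap. Below these, means stood at 0.273 to 0.755 FPKM for Gzma, 0.145 to 0.457 FPKM for Gzmb and 0.0374 to 0.253 FPKM for Prf1, and most neighbouring tissues overlapped. Heart followed lung for Gzmc (0.709 FPKM), Gzmd (0.824 FPKM), Gzme (0.204 FPKM), Gzmf (0.727 FPKM) and Prf1 (0.253 FPKM); for Gzmd, Gzme and Gzmf its range overlapped that of lung. Gzme had 0 reads in all 12 liver and kidney libraries. A count of 0 allows up to 3 reads, which is 0.118 to 0.309 FPKM in the 19 libraries of the series without Gzme reads. This limit covers counting error only.

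In the lung, Gzma, Gzmb and Prf1 had higher ICB means and the cluster genes lower ones, and no gene was called. Gzma had 27.4, 48.4 and 55.9 FPKM in ICB lungs, against 46.3, 10.7 and 15.8 FPKM in IgG lungs. IgG lung 1 lay among the ICB lungs, and the other two IgG lungs lay below all of them. Gzmb followed with 5.65, 6.36 and 9.09 FPKM in ICB lungs, against 8.73, 2.31 and 3.23 FPKM in IgG lungs. Prf1 had 4.43, 6.67 and 8.53 FPKM in ICB lungs, against 6.40, 2.11 and 3.08 FPKM in IgG lungs. The same IgG library caused the overlap in all 3 genes.

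Gzmc had 1.58, 3.60 and 2.68 FPKM in ICB lungs, against 5.38, 4.07 and 1.40 FPKM in IgG lungs. Gzmd had 2.0997, 3.12 and 1.83 FPKM in ICB lungs, against 7.51, 4.67 and 1.14 FPKM in IgG lungs. Here IgG lung 3 was the lowest of the 6 and IgG lungs 1 and 2 the highest. Gzmf had 2.17, 3.47 and 1.24 FPKM in ICB lungs, against 9.44, 6.66 and 1.15 FPKM in IgG lungs, and Gzme 0.720 to 1.10 FPKM in ICB lungs, against 0.314 to 3.16 FPKM in IgG lungs. Both had the same extremes as Gzmd.

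ICB minus IgG in the lung was 1.03 ± 0.51 for Gzma, 0.69 ± 0.34 for Prf1 and 0.62 ± 0.38 for Gzmb. For the cluster it was -0.81 ± 0.56 for Gzmf, -0.53 ± 0.42 for Gzme, -0.51 ± 0.46 for Gzmd and -0.28 ± 0.37 for Gzmc. The adjusted p was 0.988 for each of the 7 (limma, Benjamini-Hochberg over 12747 genes), and the lowest unadjusted p was 0.0766, for Prf1. Across all genes limma called 0 in the lung (0% of those tested), 555 had an unadjusted p under 0.05, and limma-voom called 0. None of the 7 genes separated ICB from IgG lungs, a pattern that 4.5% of genes showed with ICB above and 4.14% with ICB below. Single libraries moved these values by more than 1.5 times. The difference of Gzma was 0.61 without IgG lung 2 and 1.62 without IgG lung 1, that of Prf1 0.42 and 1.05, and that of Gzmb 0.30 and 1.08. For the cluster the value was nearest to 0 without IgG lung 1 and farthest without IgG lung 3: -0.36 and -1.50 for Gzmf, -0.24 and -1.07 for Gzme, -0.08 and -1.07 for Gzmd, and 0.01 and -0.69 for Gzmc. Rescaling to a common FPKM sum moved the median of all genes in the lung by 0.19, and no sign among the 7 changed.

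**Figure D4:**
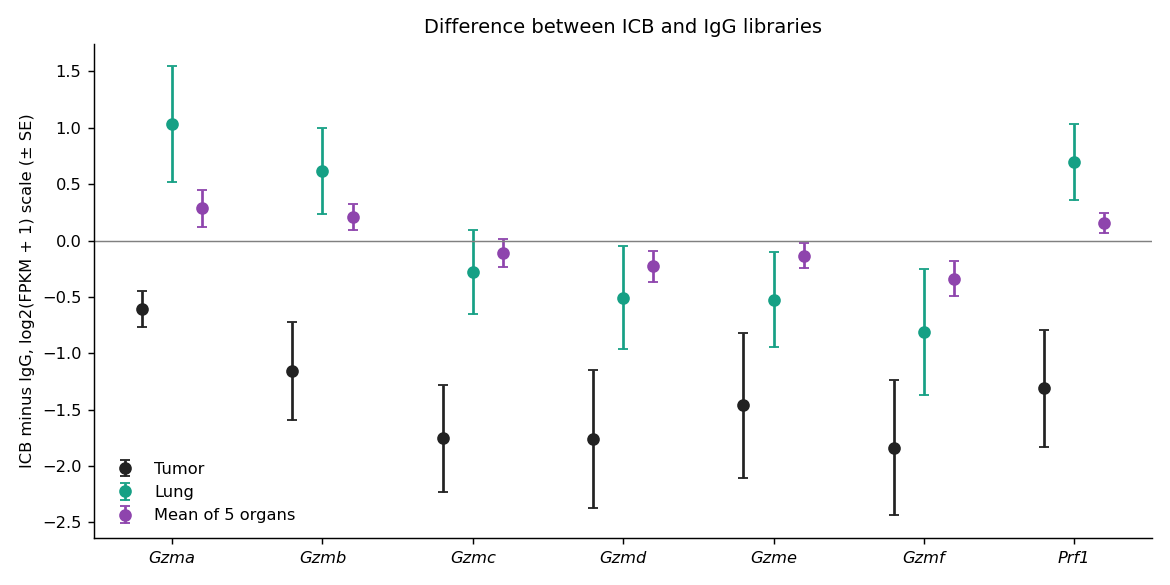
ICB minus IgG on the log2(FPKM + 1) scale for each gene in tumor, lung and the mean of 5 organs, with bars of 1 SE from limma. Tumor values lie at -0.61 to -1.84, and in lung and the organ mean Gzma, Gzmb and Prf1 lie above 0 and Gzmc to Gzmf below 0. The organ mean includes the lung.

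The lung granzymes fell into 2 sets by their variation among libraries. With treatment means subtracted, Gzma had a correlation of 0.964 to 0.989 with Gzmb and Prf1, and Gzmc to Gzmf had 0.876 to 0.983 among themselves. Between the sets the values were 0.223 to 0.557. In the tumor, in contrast, Gzmb and Prf1 ran with Gzmc to Gzmf, at 0.862 to 0.971, and not closely with Gzma. The numbers are over 6 libraries in each tissue, and the difference between tissues was not tested.

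The balance between the sets was described in the lung by Gzma and Gzmf. Of the genes described here, these had the highest and the lowest ICB minus IgG in the same lungs (1.03 and -0.81). A lean towards Gzma in ICB lungs therefore follows from the choice of this pair. The ratio of Gzma to Gzmf was 12.7 to 44.9 in ICB lungs, against 1.61 to 13.7 in IgG lungs, so on the plain ratio the groups overlapped. As a difference of log2(FPKM + 1) it was 3.17, 3.47 and 4.66 in ICB lungs, against 2.18, 0.61 and 2.96 in IgG lungs, without overlap. The separation thus depends on the pseudocount as well as on the pair chosen. No test of it is given, and nothing is read from it. Gzma formed 69.2%, 73.3% and 77.9% of the summed granzymes in ICB lungs, against 57.5%, 34.1% and 68.6% in IgG lungs. These shares did not overlap either, but ICB lung 1 and IgG lung 3 were close together. Because Gzma had the highest lung difference, its share is given as a description too.

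**Figure D5:**
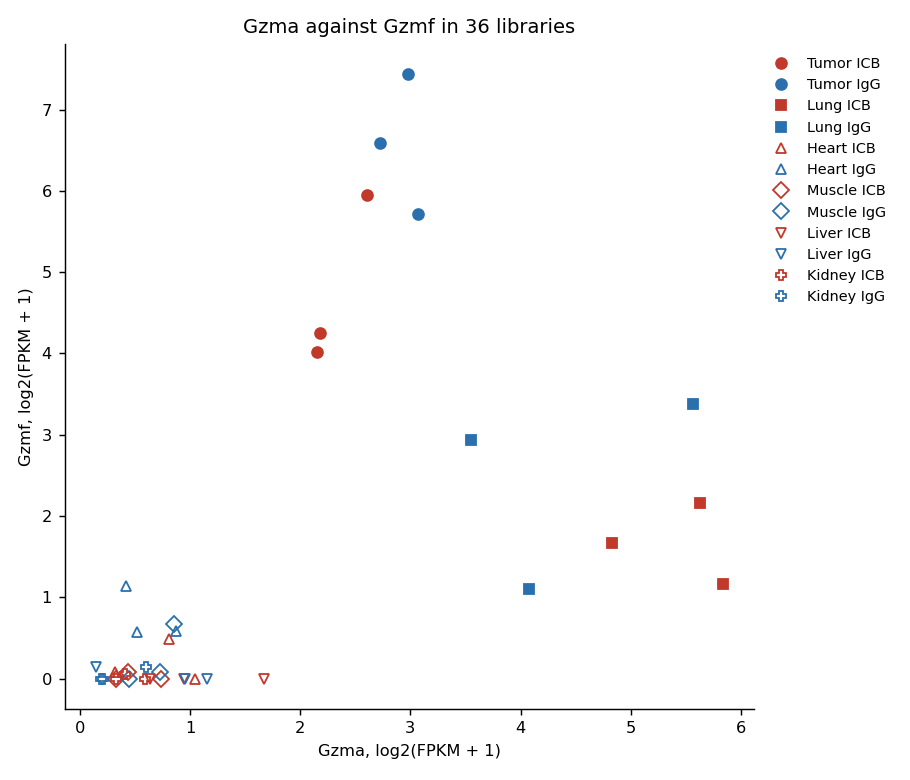
Gzma against Gzmf in log2(FPKM + 1) over 36 libraries, by tissue and treatment. Tumor libraries lie high on Gzmf and lung libraries high on Gzma, and no library is at the top of both.

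Cell markers in the lung moved along with these genes. T cell genes summed to 46.4, 77.7 and 60.0 FPKM in ICB lungs, against 69.3, 26.5 and 33.2 FPKM in IgG lungs. NK cell genes summed to 13.9, 20.9 and 24.1 FPKM in ICB lungs, against 34.8, 6.44 and 9.80 FPKM in IgG lungs. IgG lung 1, the IgG library with high Gzma, Gzmb and Prf1, also led the IgG lungs in both sums. Neutrophil genes summed to 1015, 1164 and 359 FPKM in ICB lungs, against 2503, 1733 and 150 FPKM in IgG lungs, and red cell genes to 1521, 2113 and 346.3 FPKM in ICB lungs, against 15636, 8367 and 1577 FPKM in IgG lungs. IgG lungs 1 and 2, highest in Gzmc to Gzmf, were also highest in the neutrophil and red cell sums. Macrophage genes summed to 214 to 260 FPKM in ICB lungs and 150 to 165 FPKM in IgG lungs. The part of these cells in the granzyme values was not tested.

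In the lung all 14 T cell genes tested and 6 of 7 NK cell genes had positive differences, with medians of 0.43 and 0.32, beside -0.01 over all genes. Granule storage and release genes were positive in 10 of 11, with a median of 0.08, and regulators of the cytotoxic program in 6 of 7, with a median of 0.23. All 3 granzyme inhibitors tested were negative, with a median of -0.15. Nkg7, a granule membrane protein of cytotoxic cells singled out after its values were seen, had 13.8 FPKM in ICB and 7.95 FPKM in IgG lungs (0.84 ± 0.37). Cytokines and receptors that induce granzymes had 3 positive and 4 negative differences of 7 tested, with a median of -0.08. Il2rb, the gene of that list already named for the tumor, had 9.76 FPKM in ICB and 5.03 FPKM in IgG lungs (0.92 ± 0.30). None of these genes was called (limma, adjusted p of at least 0.988).

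Heart, muscle, liver and kidney held few granzyme reads, at most 28 per gene and library, and 0 of the 7 genes passed the filter of 1 FPKM in 3 libraries in any of them. Their differences are therefore given as values. In the heart Gzmf had 0.398, 0 and 0.0594 FPKM in ICB libraries (7 reads in all), against 0.499, 1.20 and 0.485 FPKM in IgG libraries (38 reads in all). The groups did not overlap, as for 4.85% of heart genes with reads in at least 3 libraries. Heart IgG 2 was the highest library, and Gzmd, at 1.43 FPKM there, had 0 to 0.747 FPKM in ICB hearts and 0.512 to 1.43 FPKM in IgG hearts, with overlap.

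In muscle Prf1 had 0.175, 0.138 and 0.398 FPKM in ICB libraries (26 reads), against 0.0253, 0 and 0.0868 FPKM in IgG libraries (4 reads). ICB lay above IgG without overlap, as for 6.17% of muscle genes with reads in at least 3 libraries. Gzmb had 0.218, 0.840 and 0.948 FPKM in ICB muscles, against 0.0367, 0.178 and 0.251 FPKM in IgG muscles, with an overlap of 1 library on each side. Gzmd went the other way, with 0.107, 0 and 0 FPKM in ICB muscles (2 reads), against 0.540, 0.131 and 0.185 FPKM in IgG muscles (15 reads), a separation that 4.82% of muscle genes showed with ICB below. With no filter on low values, limma gave 0.25 ± 0.09 for Prf1, 0.50 ± 0.19 for Gzmb and -0.30 ± 0.12 for Gzmd in muscle, each with an adjusted p of 0.885.

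Liver and kidney showed no separation in any of the 7 genes. Gzma had 0.930, 0.557 and 2.19 FPKM in ICB livers, against 0.108, 0.938 and 1.22 FPKM in IgG livers. In the kidney Gzma had 0.255 to 0.507 FPKM in ICB and 0.145 to 0.519 FPKM in IgG libraries. The cluster genes had at most 0.583 FPKM in any liver or kidney library.

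Averaged over the 5 organs, 0 of the 7 genes were called, beside 0.372% of 15601 genes (58) in the same fit. Gzma had 0.28 ± 0.16 (limma adjusted p = 0.676), Gzmb 0.21 ± 0.12 (adjusted p = 0.665) and Prf1 0.16 ± 0.09 (adjusted p = 0.686). Gzmf had -0.34 ± 0.15 (adjusted p = 0.499, unadjusted p = 0.0364), Gzmd -0.23 ± 0.14 (adjusted p = 0.693), Gzme -0.13 ± 0.11 (adjusted p = 0.835) and Gzmc -0.11 ± 0.12 (adjusted p = 0.910). Gzmf was the 1 gene of the 7 with an unadjusted p under 0.05, and limma-voom called 0 of the 7. Without IgG lung 3, a choice made after seeing the data, Gzmf (-0.47 ± 0.09) and Gzme (-0.24 ± 0.05) passed the threshold, as did 95 of 15601 genes (0.609%) in that fit. IgG lung 3 had the lowest lung values of both genes, so leaving it out moves their differences away from 0, and nothing is read from these calls. All 14 T cell and all 7 NK cell genes tested were positive in the organ mean, with medians of 0.19 and 0.08, and none was called. Of 9 macrophage genes 3 were called higher in ICB organs: Csf1r (0.65 ± 0.11, adjusted p = 0.0167), Adgre1 (0.72 ± 0.14, adjusted p = 0.0203) and Mpeg1 (0.68 ± 0.13, adjusted p = 0.0230). Of 5 red cell genes 1, Hba-a2, was called lower (-1.69 ± 0.37, adjusted p = 0.0390). None of these 4 calls held with title numbers as a block and an estimated correlation: the limma adjusted p was then 0.0628 for Csf1r, 0.0782 for Adgre1, 0.0833 for Mpeg1 and 0.167 for Hba-a2.

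Sample titles carry numbers shared across tissues, which may mark animals, although no label says so. The IgG tumor with the highest sum of Gzmc to Gzmf (560 FPKM) and the IgG lung with the highest (25.5 FPKM) were the libraries titled T338 and LG338, and T339 and LG339 came second (275 and 18.5 FPKM). In muscle M338 (0.653 FPKM) also stood above M339 (0.131 FPKM), but M340 was highest (1.79 FPKM), and in heart H340 was (4.17 FPKM). Among ICB libraries T345 had the lowest sum of the tumors (55.7 FPKM) and LG345 the highest of the lungs (11.3 FPKM).

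Another granzyme gene measured, Gzmm, had a different distribution. It had 4.61 ± 0.993 FPKM in ICB and 4.29 ± 0.782 FPKM in IgG hearts, and 5.17 ± 0.313 FPKM in ICB and 5.13 ± 0.801 FPKM in IgG muscles (SD, n = 3 each). In tumors it had 0.231 ± 0.00937 FPKM with ICB and 0.0942 ± 0.0311 FPKM with IgG, from 35 and 15 reads in all. It was below the filter there. Every ICB tumor lay above every IgG tumor, as for 5.65% of the genes that passed the tumor filter. Gzmk and Gzmn had no single named row among the deposited values, so they could not be analysed.

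The genes whose level over the 36 libraries was most like that of a member were found among 14400 genes by the Pearson correlation of log2(FPKM + 1). For Gzmb the closest was Prf1 (0.990), followed by Eomes (0.969), Hsh2d (0.959), the NK receptor gene Klra4 (0.957), Cenpt and Aim2. For Prf1 they were Gzmb, Eomes (0.961), Tnfrsf13c, Fcho1 and, further down, Runx3 (0.942). Gzmc was followed by Gzmd (0.992), Gzmg (0.991), Gzmf (0.990) and Gzme (0.985), then by Slc9a5 (0.969) and Tnfrsf9, a costimulatory receptor of activated T cells (0.966). Gzma had other neighbours: Unc13d, a granule release factor (0.972), the NK receptor gene Cd244a (0.969), Rasal3, the T cell kinase Lck (0.965), Cd79a of the B cell receptor, Ms4a4b, Myo1g, the NK receptor gene Ncr1 (0.958), Ctsw (0.958) and Cd5. Tissue differences dominate these values, since libraries of a tissue cluster together, and they are given with no p. In the 6 tumor libraries alone, with treatment means subtracted, Prf1 had rank 5 among the genes most like Gzmb (0.993). It stood behind Ccdc120 (0.997), Klf8, Bbs5 and Arpc2. For Prf1, Gzmb had rank 2, behind Bbs5 (0.9995). No member was among the 10 genes most like Gzma or Gzmc, which were led by Ccdc82 (0.997) and Cntln (0.995). Correlations this high over 6 libraries were therefore not particular to granzymes and perforin.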

How the data were processed

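The 36 bulk RNA libraries were made with the Illumina TruSeq kit, per the labels' protocols. The authors deposited FPKM values per gene symbol; the submitters' processing notes name HISAT2 (version 2.1.0), edgeR and mm10, with no roles or settings, and read length, strand setting and annotation are not stated there. The FPKM of all 18781 rows are whole reads over a gene length and a library size (within 0.001 reads), so reads were recovered. The library sizes implied by the FPKM were 0.532 to 1.60 times the recovered totals, so the deposited values carry a scaling between libraries. Rows without a gene name (15) and symbols found more than once (3) were left out of the fits.

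Libraries are numbered 1 to 3 within a group in deposit order. FPKM are not counts, so differences were fitted with limma 3.58.1 (R 4.3.3; empirical Bayes with trend, two-sided) on log2(FPKM + 1), with Benjamini-Hochberg adjustment over all genes that reached 1 FPKM in 3 or more libraries of the fit and a threshold of 0.05. Each tissue was fitted alone. The organ mean used 30 libraries and the tissue levels the 18 IgG libraries. Every adjusted p in the text comes from these limma fits, except those given with no filter in muscle and those given with title numbers as a block. Alternatives were a pseudocount of 0.1, no filter, other scalings, limma-voom on genes with at least 10 recovered reads in at least 3 libraries, a fit of all 36 libraries, title numbers as a block, and leaving out libraries or organs. The limma fits of the lung, the organ mean, lung against the 4 organs and tumor against lung were run on simulated data with independent normal noise. The ICB against IgG fits of the other tissues and limma-voom were not. No pair of libraries within a group agreed within sampling noise.

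The 7 genes, the lists and the tests were chosen with earlier results of these data known. Other genes are named if they belong to a list (at most 6 per list, or those called) or are among the 10 most like Gzma, Gzmb, Gzmc or Prf1. Gene positions and transcripts are from GENCODE M21 (mm10), promoters from RefSeq (GRCm38.p6). Analysis used Python 3.11.15.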

Additional observations from a re-analysis of the deposited data

How the results depend on the processing

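No paired analysis was possible for ICB against IgG because these libraries share no title number. Taking title numbers as a replicate block across tissues changed no call of the 7 genes, but left 0 genes called in the organ mean (main 58), with 946 at an unadjusted p under 0.05. The estimated correlation within a number was 0.142 in the organ libraries and 0.127 in the IgG libraries. In the tumor all 91 values of the 7 genes over 13 alternatives stayed negative. Since the genes were selected on this contrast in the same libraries, nothing is read from that constant sign. The values were -0.25 to -0.70 without ICB tumors 2 and 3, which left 1 ICB library. Without IgG tumor 2 the value for Gzme was -0.93 (main -1.46). The whole-gene count was 69 in the fit of all 36 libraries and 0 to 6 when 1 library was left out. In the lung 83 of 84 values kept their sign, with 0 of the 7 called throughout. Gzmc ranged from -0.69 to 0.0141 (without IgG lung 1, an opposite sign) when 1 library was left out, and the fit of all 36 libraries called 55 genes. In the organ mean, which includes lung, the 7 genes kept their signs in all 16 alternatives. Without lung, however, the value was 0.0217 for Prf1, 0.0969 for Gzma and -0.0356 for Gzme. Single organs differed in sign: with no filter Prf1 was -0.17 in heart and 0.25 in muscle. The count of all genes called in the organ mean was 226 on a common FPKM sum, 30 by limma-voom, 3 without liver and 0 without lung, muscle or kidney. Without single lung libraries (chosen after seeing the data) it was 24 to 171, with 0 to 2 of the 7 called. The cause was not tested. All 7 calls of lung against the 4 organs remained in 6 alternatives, and all 7 signs of tumor against lung in 9. Depth limits heart, muscle, liver and kidney, where a gene had at most 28 reads in a library.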
